A study of Arabidopsis thaliana with 42 samples.

Results

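The cytokinin response factors (CRFs) are a family of AP2/ERF transcription factors of Arabidopsis thaliana. The members described here are 9 of the 25069 counted loci, CRF1 to CRF6, CRF10, CRF11 and CRF12, and all 9 passed the filter on low counts that left 24839 loci. The rule that lists them goes by family name and states no threshold, and the family was chosen by its values in these same 4 genotypes. Differences of the 9 genes between genotypes are therefore given as a description, with no p-value for any of them. Of the other family genes, CRF7 and CRF8 were counted and are shown beside the members, and CRF9 is not analysed here. The members lie on chromosomes 1 (CRF10, CRF12), 2 (CRF5), 3 (CRF6, CRF11), 4 (CRF1, CRF2, CRF4) and 5 (CRF3).

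Polyadenylated RNA had been sequenced from seedlings 2 weeks old, raised on plates of half-strength Murashige and Skoog medium at 22 °C under 16 h of light after 7 days in the cold. The 12 libraries are 3 each of the single mutant ddm1 and of the double mutants ddm1nrpd1, ddm1nrpe1 (written ddm1npre1 in the labels) and ddm1cmt2, and 30 other samples of the series are not analysed here. All 4 groups carry ddm1, so no group has an intact DDM1, and the RNA labels name no allele. DDM1 is a chromatin remodeller needed for DNA methylation of heterochromatic transposons. NRPD1 and NRPE1 each encode the catalytic subunit of a plant-specific RNA polymerase, Pol IV and Pol V, which act in DNA methylation guided by small RNAs (RdDM). CMT2 methylates cytosines outside CG sites in long transposons. Whether the 3 libraries of a genotype were grown and harvested separately is not stated in the labels, so the spread behind each p-value may be technical. In whole seedlings, fewer cells of a type and less RNA per cell cannot be told apart.

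Cytokinin is perceived by the AHK histidine kinases at cell membranes, and phosphate passes through AHP phosphotransfer proteins to response regulators in the nucleus. Type-B regulators (ARRs) are transcription factors that switch on cytokinin targets, and type-A regulators are among the targets and dampen the signal. The CRFs form a side branch: several are induced by cytokinin, several bind AHPs, and they act in embryo, cotyledon, leaf and lateral root development and in stress and senescence. By sequence the family falls into sister pairs, CRF1 with CRF2, CRF3 with CRF4, CRF5 with CRF6 and CRF7 with CRF8, and a separate clade of CRF9 to CRF12.

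Total counts were 7.84 to 10.2 M reads (M, mega) per library in ddm1, 14.9 to 24.8 M in ddm1nrpd1, 16.3 to 18.8 M in ddm1nrpe1 and 10.8 to 18.1 M in ddm1cmt2. A member had between 7 counts (CRF1 in a ddm1cmt2 library) and 646 counts (CRF2 in a ddm1 library). The mutated genes were read over their whole locus, which does not show what part of a transcript is made. NRPD1 stood at 5.74 ± 1.27 CPM in ddm1 and 14.1 ± 0.725 in ddm1nrpd1, and NRPE1 at 13.1 ± 1.08 in ddm1 and 58.7 ± 5.65 in ddm1nrpe1 (SD, n = 3). These levels part the ddm1nrpd1 and ddm1nrpe1 libraries from all others, with more and not fewer reads of the mutated gene. CMT2 stood at 31.8 ± 2.99 CPM in ddm1, 26.8 ± 1.08 in ddm1cmt2, 20.5 ± 2.91 in ddm1nrpd1 and 17.01 ± 0.879 in ddm1nrpe1, and the ddm1cmt2 libraries lay below those of ddm1 and above those of the other groups. All levels are in CPM after TMM scaling, so they are relative to library size and, unless given per kilobase, uncorrected for gene length.

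Other transcripts moved with the genotypes, and their part in the results below was not tested. The plastid share of counts was 1.75% ± 0.201 for ddm1, 0.223% ± 0.0520 for ddm1nrpd1, 0.232% ± 0.0960 for ddm1nrpe1 and 0.870% ± 0.0787 for ddm1cmt2. The clock gene LHY, which peaks around dawn, stood at 647 ± 60.7, 512 ± 36.5, 216 ± 18.3 and 24.7 ± 2.56 CPM in the same order of groups. PRR7, a clock gene of the day, ran the other way at 9.32 ± 0.824, 48.1 ± 1.17, 73.2 ± 5.24 and 215 ± 20.01 CPM. Of 5 clock genes, 2 rose and 3 fell in ddm1nrpd1 and in ddm1nrpe1, and 2 rose and 2 fell in ddm1cmt2. Here and for the markers below, rose and fell mean called against ddm1 at an adjusted p under 0.05. By that measure 22.9% of all tested loci rose and 21.7% fell in ddm1nrpd1, 26.5% and 23.9% in ddm1nrpe1, and 18.4% and 17.7% in ddm1cmt2. Some of the marker counts are at or under these shares. No source used here gives the time of day of the harvest. Of 11 root markers, 1 rose and 6 fell in ddm1nrpd1, 0 rose and 8 fell in ddm1nrpe1, and 0 rose and 1 fell in ddm1cmt2, all against ddm1, and their summed level was 213 to 238, 191 to 220.4, 146 to 168 and 229.6 to 257 CPM in ddm1 and the 3 double mutants. The sum combines unlike members. The root hair genes PRP3, COBL9 and EXPA7 stood at 48.5 ± 12.8, 9.16 ± 1.21 and 9.90 ± 1.39 CPM in ddm1 and at 0.105 ± 0.0745, 0.0687 ± 0.0652 and 0.0343 ± 0.0326 CPM in ddm1nrpd1, close to 0. In ddm1nrpe1 they had 18.1 ± 2.91, 2.85 ± 0.0137 and 4.92 ± 0.233 CPM, and in ddm1cmt2 43.3 ± 18.5, 6.86 ± 1.74 and 9.998 ± 2.50. The iron transporter gene IRT1 had 33.8 ± 23.8, 94.6 ± 13.2, 62.7 ± 13.7 and 68.5 ± 37.1 CPM in the 4 groups and was not called against ddm1, and SCR rose in ddm1nrpd1 (0.78 ± 0.11, adjusted p = 5.56e-05). The summed level of the 5 vascular markers was 169 to 173 CPM in ddm1, 111 to 124 in ddm1nrpd1, 72.1 to 96.8 in ddm1nrpe1 and 224 to 258 in ddm1cmt2. Of the 7 leaf markers, 0 rose and 1 fell in ddm1nrpd1, 2 rose and 1 fell in ddm1nrpe1 and 3 rose and 0 fell in ddm1cmt2, at summed levels of 32575 to 36475, 30478 to 33426, 26578 to 36040.1 and 44564 to 48402 CPM. Of 4 shoot meristem markers, STM and KNAT1 were measured, at a summed 13.0 to 15.9, 13.2 to 14.3, 9.94 to 10.8 and 7.49 to 11.8 CPM, and 0 rose while 1, 1 and 2 fell in the 3 double mutants. The markers CLV3 and WUS are not analysed here. No measured root, leaf, vascular or meristem marker was at 0 in all libraries of a group.

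The family as a whole was most abundant in ddm1. Summed over the 9 members, the level was 181 ± 20.5 CPM for ddm1, 91.6 ± 5.24 for ddm1nrpd1, 90.5 ± 2.83 for ddm1nrpe1 and 62.7 ± 3.93 for ddm1cmt2 (SD, n = 3), and the lowest ddm1 library (158) lay above the highest library of any double mutant (97.6). ddm1 had the highest mean for 8 of the 9 genes, CRF6 being the exception. The lowest mean was in ddm1cmt2 for CRF1, CRF5, CRF6, CRF10, CRF11 and CRF12, and in ddm1nrpe1 for CRF2, CRF3 and CRF4. The ratio of the highest to the lowest group mean ran from 1.58 for CRF12 to 7.43 for CRF1.

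**Figure D1:**
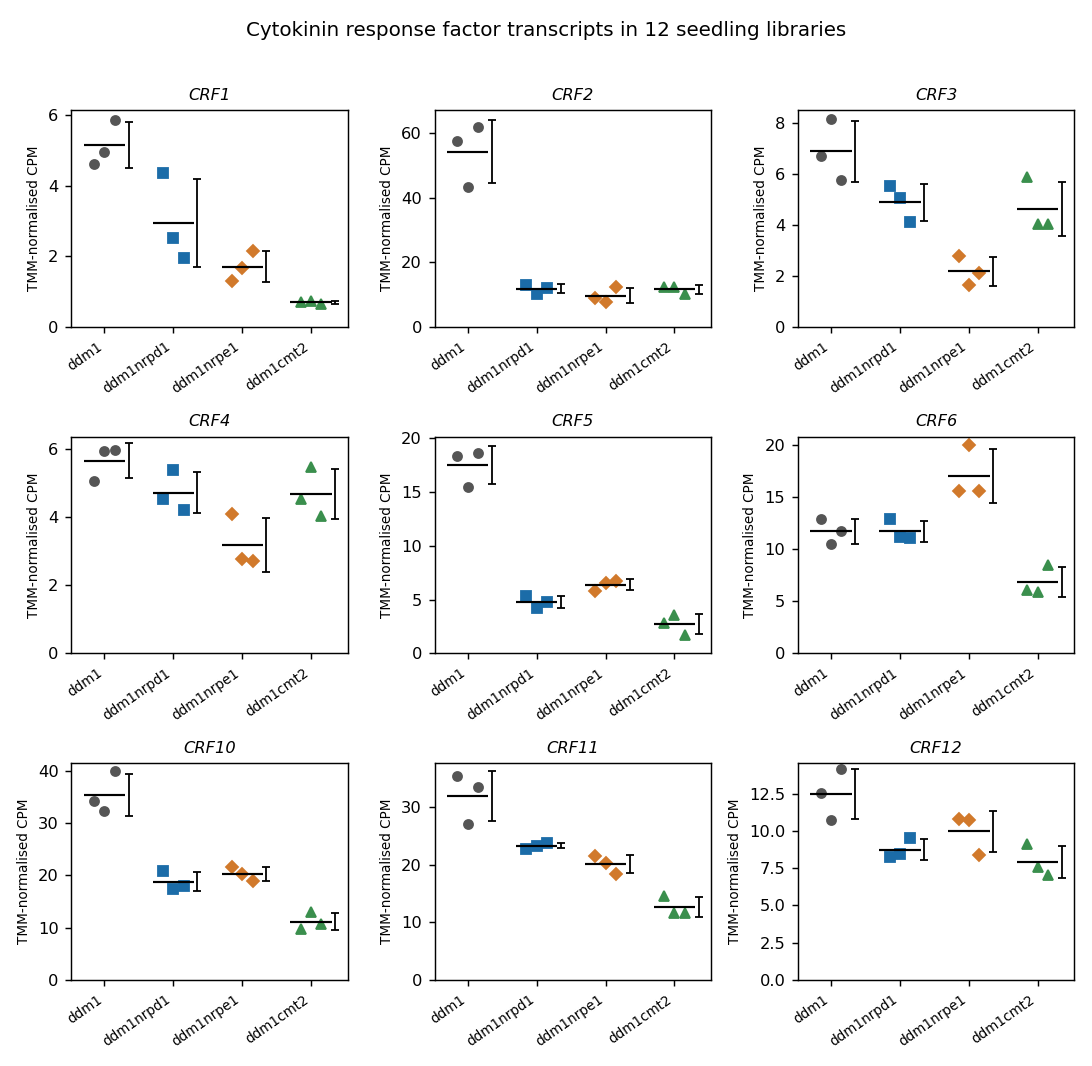
Level of each of the 9 CRF genes in TMM-normalised CPM (vertical axes from 0) in the 4 genotypes (horizontal axes). Points are the 3 libraries of a genotype, horizontal lines their mean and bars the mean ± SD. For CRF1, CRF2, CRF5, CRF10 and CRF11 all 3 ddm1 libraries lie above all libraries of the double mutants, and CRF6 is highest in ddm1nrpe1.

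CRF2 (AT4G23750), also known as TMO3, is a target of the auxin response factor MONOPTEROS in the embryo and acts in lateral root initiation. Its level stood lower in all 3 double mutants than in ddm1, where it was the highest of the family per kilobase of gene span. The 3 ddm1 libraries had 57.8, 43.2 and 62.1 CPM. The ddm1nrpd1 libraries had 13.1, 10.3 and 12.1 CPM, those of ddm1nrpe1 8.93, 7.77 and 12.3 and those of ddm1cmt2 12.2, 12.4 and 10.1. All 9 double-mutant libraries thus lay between 7.77 and 13.1 CPM and overlapped among the 3 genotypes, well apart from ddm1. The log2 fold changes against ddm1 were -2.21 ± 0.17 in ddm1nrpd1, -2.49 ± 0.17 in ddm1nrpe1 and -2.23 ± 0.17 in ddm1cmt2 (± standard error). CRF2 made up 29.9% ± 2.22 of the summed CPM of the 9 members in ddm1, without CRF7 and CRF8. In the 3 double mutants its share was 12.9% ± 1.03, 10.7% ± 2.96 and 18.4% ± 0.986 in the same order.

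CRF1 (AT4G11140), the sister gene of CRF2, had its lowest level in ddm1cmt2, and its level was stepped across the genotypes. Its ddm1 libraries had 4.61, 4.94 and 5.86 CPM and its ddm1nrpd1 libraries 4.35, 2.52 and 1.95. The ddm1nrpe1 libraries had 1.30, 1.65 and 2.16 CPM and those of ddm1cmt2 0.706, 0.730 and 0.639. The ddm1cmt2 libraries lay below all others, while ddm1nrpd1 and ddm1nrpe1 overlapped and ddm1nrpd1 replicate 1 came close to the ddm1 range. Against ddm1, the log2 fold changes were -0.81 ± 0.26, -1.59 ± 0.28 and -2.87 ± 0.34 for ddm1nrpd1, ddm1nrpe1 and ddm1cmt2. The first of these was -0.61 without ddm1nrpd1 replicate 3.

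CRF3 (AT5G53290) and CRF4 (AT4G27950) had their lowest level in ddm1nrpe1. CRF3 acts with CRF2 in lateral root formation. Its libraries had 6.70, 8.15 and 5.77 CPM in ddm1 and 5.52, 5.03 and 4.09 in ddm1nrpd1. In ddm1nrpe1 they had 2.78, 1.65 and 2.10 CPM and in ddm1cmt2 5.85, 4.02 and 4.02. All ddm1nrpe1 libraries were below all others, and ddm1cmt2 overlapped with ddm1 and with ddm1nrpd1. The log2 fold changes against ddm1 were -0.48 ± 0.21, -1.65 ± 0.23 and -0.58 ± 0.22.

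CRF4, which responds to cold, had a ratio of 1.78 between its highest and lowest group means. Its ddm1 libraries had 5.05, 5.93 and 5.96 CPM, those of ddm1nrpd1 4.52, 5.38 and 4.22, those of ddm1nrpe1 4.08, 2.76 and 2.70 and those of ddm1cmt2 4.54, 5.48 and 4.02. The 3 ddm1nrpe1 libraries lay below the 3 of ddm1, and replicate 1 of ddm1nrpe1 reached the lowest ddm1cmt2 library. Against ddm1, CRF4 had log2 fold changes of -0.25 ± 0.20, -0.83 ± 0.20 and -0.26 ± 0.20.

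CRF5 (AT2G46310) and CRF6 (AT3G61630), the next sister pair, had different patterns. CRF5 libraries had 18.3, 15.4 and 18.7 CPM in ddm1 and 5.35, 4.23 and 4.80 in ddm1nrpd1. They had 5.80, 6.56 and 6.74 CPM in ddm1nrpe1 and 2.83, 3.59 and 1.73 in ddm1cmt2. The groups did not overlap, and their order was ddm1, ddm1nrpe1, ddm1nrpd1 and ddm1cmt2. The log2 fold changes against ddm1 were -1.88 ± 0.18 in ddm1nrpd1, -1.46 ± 0.17 in ddm1nrpe1 and -2.65 ± 0.20 in ddm1cmt2.

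CRF6 is induced by oxidative stress and delays senescence in leaves. Its libraries had 12.8, 10.5 and 11.7 CPM in ddm1 and 12.9, 11.2 and 11.1 in ddm1nrpd1, which are overlapping ranges. They had 15.6, 20.01 and 15.5 CPM in ddm1nrpe1, above every other library, and 6.06, 5.90 and 8.49 in ddm1cmt2, below every other library. Relative to ddm1, CRF6 had log2 fold changes of -0.00 ± 0.16, 0.54 ± 0.15 and -0.79 ± 0.17. The second of these was 0.41 without ddm1nrpe1 replicate 2.

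CRF10 (AT1G68550), CRF11 (AT3G25890) and CRF12 (AT1G25470) belong to the separate clade and shared a lowest mean in ddm1cmt2. CRF10 libraries had 34.1, 32.2 and 39.9 CPM in ddm1, 20.9, 17.5 and 17.9 in ddm1nrpd1, 21.6, 20.3 and 18.9 in ddm1nrpe1 and 9.79, 12.9 and 10.6 in ddm1cmt2. The ddm1nrpd1 and ddm1nrpe1 libraries overlapped, between the ddm1 libraries above and the ddm1cmt2 libraries below. Its log2 fold changes against ddm1 were -0.92 ± 0.12, -0.81 ± 0.12 and -1.66 ± 0.13.

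CRF11 libraries had 35.4, 27.04 and 33.5 CPM in ddm1, 22.8, 23.3 and 23.7 in ddm1nrpd1, 21.5, 20.3 and 18.4 in ddm1nrpe1 and 14.6, 11.6 and 11.6 in ddm1cmt2. No group overlapped with another, in the order ddm1, ddm1nrpd1, ddm1nrpe1 and ddm1cmt2. Relative to ddm1, the log2 fold changes were -0.46 ± 0.12, -0.67 ± 0.12 and -1.35 ± 0.13.

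CRF12 libraries had 12.5, 10.7 and 14.1 CPM in ddm1, 8.22, 8.47 and 9.53 in ddm1nrpd1, 10.8, 10.7 and 8.35 in ddm1nrpe1 and 9.08, 7.54 and 7.03 in ddm1cmt2. It had the smallest spread between groups of the family, the 3 double mutants overlapped with one another, and ddm1nrpe1 overlapped with ddm1. The log2 fold changes against ddm1 were -0.52 ± 0.15, -0.33 ± 0.15 and -0.67 ± 0.16.

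Some counts of CRF10 and CRF12 may be shared with other loci. The locus AT1G25472 had the same count as CRF12 in 12 of 12 libraries. The locus AT1G68552 had the same count as CRF10 in 3 of 12 libraries and differed from it by at most 14 counts elsewhere. Neither locus is named in the gene table used here, and no source used here says how reads lying in both loci of a pair were assigned. Their values are no second measurement of CRF10 or CRF12.

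Counted at an adjusted p under 0.05 in edgeR's quasi-likelihood fit over all 24839 loci, 0 members were called higher and 6 lower in ddm1nrpd1 than in ddm1, where 22.9% of all tested loci were called higher and 21.7% lower. In ddm1nrpe1, 1 member was called higher and 7 lower, where 26.5% and 23.9% of all loci were. In ddm1cmt2, 0 members were called higher and 7 lower, where 18.4% and 17.7% of all loci were. The members' median log2 fold change was -0.52, -0.83 and -1.35 in the 3 comparisons, and that of all tested loci was -0.00, 0.01 and -0.00. These counts describe the choice of the family and nothing is read from them. The 3 comparisons share the ddm1 libraries, so a high value in ddm1 enters all of them.

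**Figure D2:**
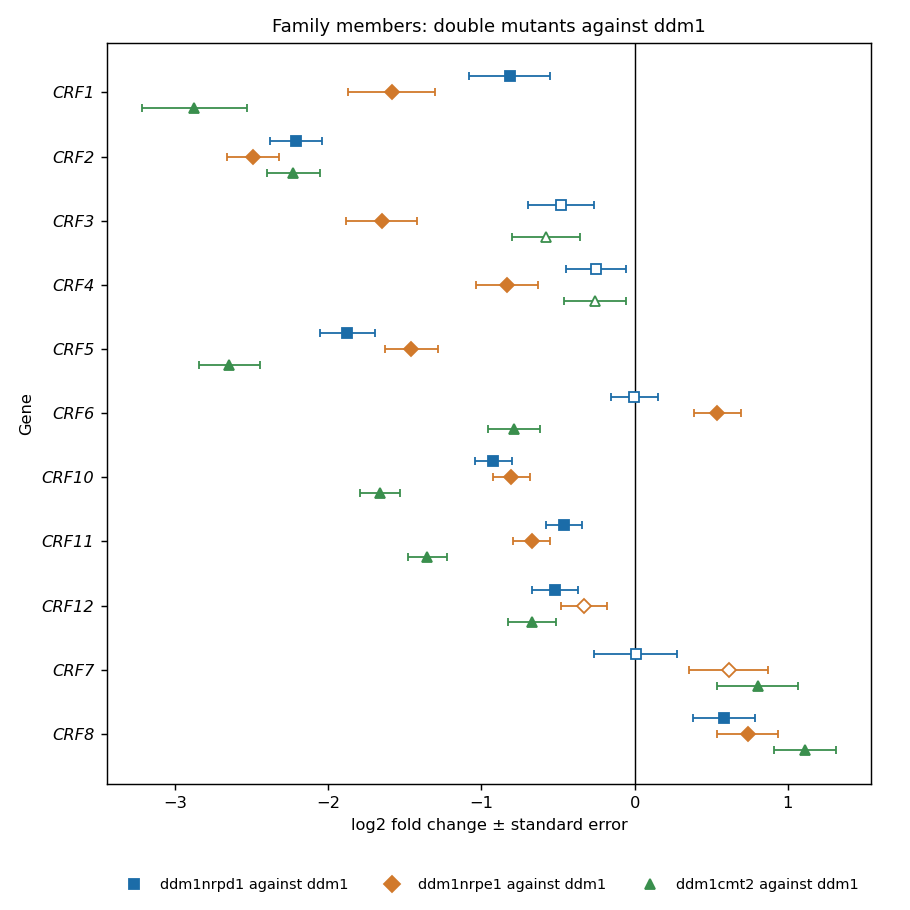
Log2 fold change ± standard error (horizontal axis) of the 9 members and of CRF7 and CRF8 in each double mutant against ddm1, from edgeR's quasi-likelihood fit. Filled symbols passed an adjusted p of 0.05 over all tested loci. For the 9 members, chosen by their values in these libraries, the fill is a description only and nothing is read from it. Most points lie left of 0, while CRF6 in ddm1nrpe1, CRF7 in ddm1nrpe1 and ddm1cmt2, and CRF8 lie right of it.

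CRF7 (AT1G22985) and CRF8 (AT1G71130), the sister pair outside the listed members, had their highest mean in ddm1cmt2. CRF8 libraries had 7.80, 4.44 and 4.62 CPM in ddm1, 8.87, 8.43 and 7.98 in ddm1nrpd1, 10.4, 8.05 and 9.70 in ddm1nrpe1 and 10.1, 11.99 and 14.4 in ddm1cmt2. The libraries of the double mutants were all above those of ddm1. The log2 fold changes of CRF8 against ddm1 were 0.58 ± 0.20, 0.74 ± 0.20 and 1.12 ± 0.20. CRF7 was scarce, at 1.65 ± 0.605, 1.68 ± 0.196, 2.55 ± 0.313 and 2.89 ± 0.233 CPM, with log2 fold changes of 0.01 ± 0.27, 0.62 ± 0.26 and 0.80 ± 0.26. The locus AT1G22990 (HIPP22) had a total of 361 counts against 389 for CRF7, with the same count in 0 of 12 libraries and a difference of at most 14. CRF8 thus stood above ddm1 in the double mutants, where most of the 9 members stood below it.

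Levels of different members were compared per kilobase (kb) of gene span, introns included. In ddm1, CRF2 had 28.4 ± 5.18 CPM per kb, followed by CRF10 (15.8 ± 1.78), CRF11 (14.3 ± 1.95), CRF5 (11.2 ± 1.14), CRF6 (7.64 ± 0.769) and CRF12 (6.17 ± 0.840). CRF3 (4.38 ± 0.765), CRF4 (3.88 ± 0.355) and CRF1 (2.90 ± 0.367) were lowest. CRF10 and CRF11 differed by less than the larger of their SDs, as did CRF3 and CRF4. In ddm1nrpd1 the order began with CRF11 (10.4 ± 0.211), CRF10 (8.34 ± 0.821), CRF6 (7.65 ± 0.655) and CRF2 (6.18 ± 0.753). Of these, CRF10 and CRF6 differed by less than the larger of their SDs. In ddm1nrpe1 it began with CRF6 (11.1 ± 1.69), CRF10 (9.04 ± 0.608), CRF11 (8.96 ± 0.695) and CRF2 (5.06 ± 1.23), of which CRF10 and CRF11 lay within their SDs. Among the 9 members in ddm1cmt2, CRF2 (6.06 ± 0.660), CRF11 (5.62 ± 0.787), CRF10 (4.94 ± 0.718) and CRF6 (4.45 ± 0.949) led and each lay within its SD of the next. CRF5 (1.74 ± 0.599) and CRF1 (0.391 ± 0.0267) came last there. Of the members, CRF2 thus led in ddm1 and stood behind CRF6, CRF10 and CRF11 in both RdDM double mutants. CRF8, outside the members, had 4.86 ± 1.63 CPM per kb in ddm1 and 7.29 ± 0.387 in ddm1nrpd1. It had 8.13 ± 1.05 in ddm1nrpe1 and 10.5 ± 1.88 in ddm1cmt2. CRF8 thus stood above CRF2 in each double mutant and above every member in ddm1cmt2.

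The double mutants were also compared with each other, in contrasts that do not use the ddm1 libraries but share the libraries of a double mutant in pairs. Between ddm1nrpd1 and ddm1nrpe1, 3 members were called higher in ddm1nrpd1 and 1 lower, where 16.4% and 19.7% of all tested loci were. As with the counts against ddm1, the counts of members in these contrasts are a description of a family chosen on the same libraries, and nothing is read from them. CRF3 had the largest difference (1.17 ± 0.22), then CRF1 (0.77 ± 0.28) and CRF4 (0.58 ± 0.19), and CRF6 was lower in ddm1nrpd1 (-0.54 ± 0.14). CRF2 stood at 0.28 ± 0.17. Without ddm1nrpe1 replicate 2 the differences of CRF1, CRF4 and CRF6 were 0.75, 0.49 and -0.41. The difference of CRF1 rested more on ddm1nrpd1 replicate 1, without which it was 0.40, and it was 0.62 without ddm1nrpe1 replicate 1.

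ddm1cmt2 had the lowest level of most members. Against it, ddm1nrpd1 had 5 members called higher and 0 lower, where 24.5% and 26.0% of all tested loci were. The members with the larger differences were CRF1 (2.06 ± 0.34), CRF11 (0.89 ± 0.12), CRF6 (0.79 ± 0.16), CRF5 (0.77 ± 0.21) and CRF10 (0.74 ± 0.13). CRF2 (0.02 ± 0.18), CRF3 (0.10 ± 0.22), CRF4 (0.00 ± 0.19) and CRF12 (0.15 ± 0.15) had smaller ones.

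In ddm1nrpe1 against ddm1cmt2, 5 members were called higher and 2 lower, where 28.2% and 26.9% of all tested loci were. The larger positive differences were those of CRF6 (1.33 ± 0.16), CRF1 (1.29 ± 0.37), CRF5 (1.19 ± 0.20), CRF10 (0.86 ± 0.13) and CRF11 (0.68 ± 0.12). The larger negative ones were those of CRF3 (-1.07 ± 0.23) and CRF4 (-0.58 ± 0.20). CRF12 (0.34 ± 0.15) and CRF2 (-0.26 ± 0.18) had smaller ones. The difference of CRF4 was -0.44 without ddm1cmt2 replicate 2.

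**Figure D3:**
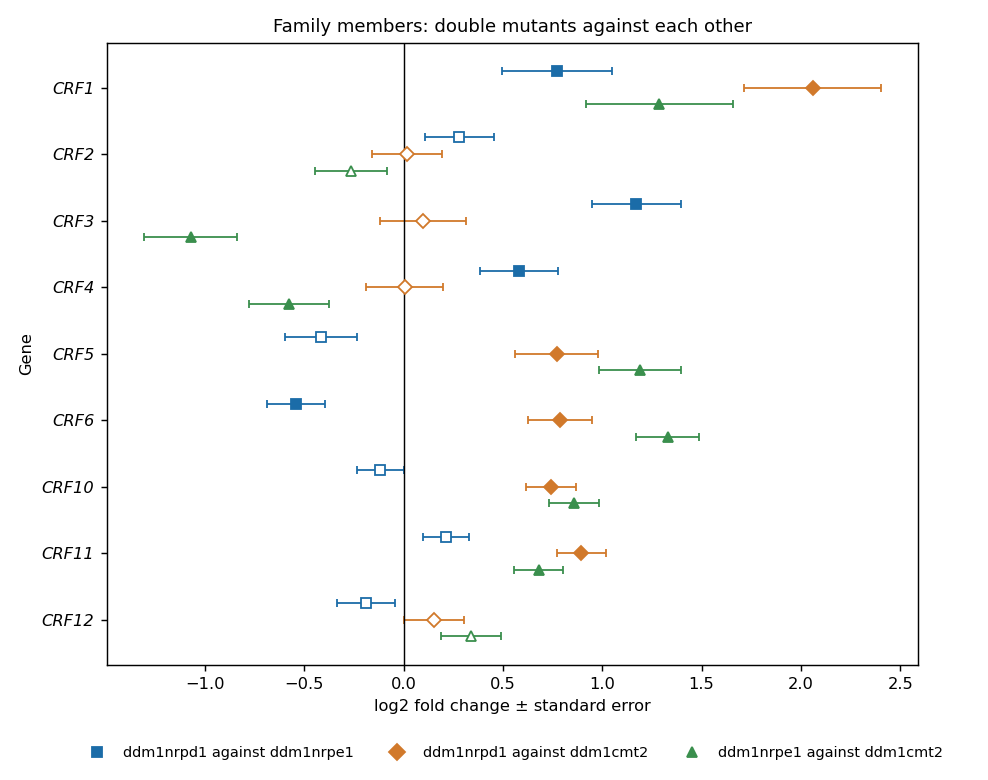
Log2 fold change ± standard error (horizontal axis) of the 9 members between pairs of double mutants, the first named minus the second. Filled symbols passed an adjusted p of 0.05 over all tested loci. As the members were chosen by their values in these libraries, the fill is a description only and nothing is read from it. CRF1, CRF5, CRF6, CRF10 and CRF11 lie right of 0 against ddm1cmt2, and CRF3 and CRF4 lie left of it in ddm1nrpe1 against ddm1cmt2.

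The rest of the cytokinin pathway was read from lists of 66 genes in all, of which 49 were tested. For the genes below, p-values come from the same edgeR quasi-likelihood fit and were adjusted over all tested loci (Benjamini-Hochberg), and the lists were chosen with earlier results of these data known. Against ddm1, 6 of the 49 rose and 23 fell in ddm1nrpd1, 8 rose and 21 fell in ddm1nrpe1 and 7 rose and 14 fell in ddm1cmt2, with medians of -0.28, -0.23 and -0.11. The shares of all tested loci that rose and fell are those given above for the same comparisons.

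The type-A response regulators, which are induced by cytokinin and repress its signal, fell in all 3 double mutants with the exception of ARR3. Of 9 tested genes 8 fell and 0 rose in each comparison, with a median log2 fold change of -0.80 in ddm1nrpd1, -0.81 in ddm1nrpe1 and -1.23 in ddm1cmt2. ARR6 libraries had 40.4, 32.97 and 36.5 CPM in ddm1, 10.05, 7.21 and 10.96 in ddm1nrpd1, 11.5, 14.2 and 15.9 in ddm1nrpe1 and 12.7, 10.8 and 8.76 in ddm1cmt2. The lowest ddm1 library lay above the highest library of every double mutant. ARR6 thus fell in ddm1nrpd1 (-1.98 ± 0.17, adjusted p = 2.64e-07), ddm1nrpe1 (-1.40 ± 0.16, adjusted p = 6.46e-06) and ddm1cmt2 (-1.77 ± 0.17, adjusted p = 1.34e-06).

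ARR7 libraries had 60.2, 57.8 and 62.3 CPM in ddm1, 17.4, 16.6 and 21.01 in ddm1nrpd1, 23.2, 34.1 and 38.3 in ddm1nrpe1 and 13.4, 14.1 and 13.4 in ddm1cmt2. It fell by 1.72 on the log2 scale in ddm1nrpd1 (adjusted p = 2.99e-07), by 0.91 in ddm1nrpe1 (adjusted p = 0.000102) and in ddm1cmt2 its log2 fold change was -2.14 (adjusted p = 7.01e-08). The fall was smaller in ddm1nrpe1 than in ddm1cmt2 (difference 1.22 ± 0.15, adjusted p = 8.7e-06) and than in ddm1nrpd1 (difference of ddm1nrpd1 from ddm1nrpe1 -0.80 ± 0.15, adjusted p = 0.000619). ARR15 libraries had 14.1, 12.1 and 14.1 CPM in ddm1, 4.41, 4.58 and 5.64 in ddm1nrpd1, 1.42, 2.54 and 6.09 in ddm1nrpe1 and 1.72, 2.25 and 1.83 in ddm1cmt2, and the ddm1nrpe1 libraries were the most scattered. Its log2 fold changes were -1.47 ± 0.34, adjusted p = 0.00372, -1.99 ± 0.35, adjusted p = 0.000533 and -2.77 ± 0.40, adjusted p = 0.000165.

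ARR5 had 21.98 ± 1.75 CPM in ddm1 and 8.86 ± 2.49, 11.1 ± 0.597 and 9.37 ± 0.672 in the double mutants, with log2 fold changes of -1.32, -0.98 and -1.23 (adjusted p = 8.84e-06, 0.00011 and 2.99e-05). ARR4 had 122 ± 12.3 CPM in ddm1 and 69.9 ± 8.80, 75.7 ± 10.7 and 68.6 ± 6.69 in the double mutants (adjusted p = 0.000109, 0.00036 and 0.000115). ARR16 had 9.94 ± 1.39, 5.92 ± 0.591, 6.25 ± 0.522 and 2.94 ± 0.342 CPM and was lower in ddm1cmt2 than in ddm1nrpd1 (difference 1.02 ± 0.17, adjusted p = 0.000144) and ddm1nrpe1 (difference 1.101 ± 0.17, adjusted p = 6.06e-05). ARR8 had 42.4 ± 3.12, 34.4 ± 2.19, 26.4 ± 1.12 and 28.4 ± 2.97 CPM, and ARR9 had 47.2 ± 1.01, 31.98 ± 2.06, 26.9 ± 6.03 and 31.05 ± 7.44 CPM. The fall of ARR8 in ddm1nrpd1 (-0.30 ± 0.10, adjusted p = 0.0213) was lost without ddm1nrpd1 replicate 2 (adjusted p = 0.0553) or 3 (0.0808) or ddm1 replicate 3 (0.105). ARR3 was the gene not called, with log2 fold changes of -0.16 ± 0.26, -0.08 ± 0.26 and -0.06 ± 0.27. ARR17 is not analysed here.

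**Figure D4:**
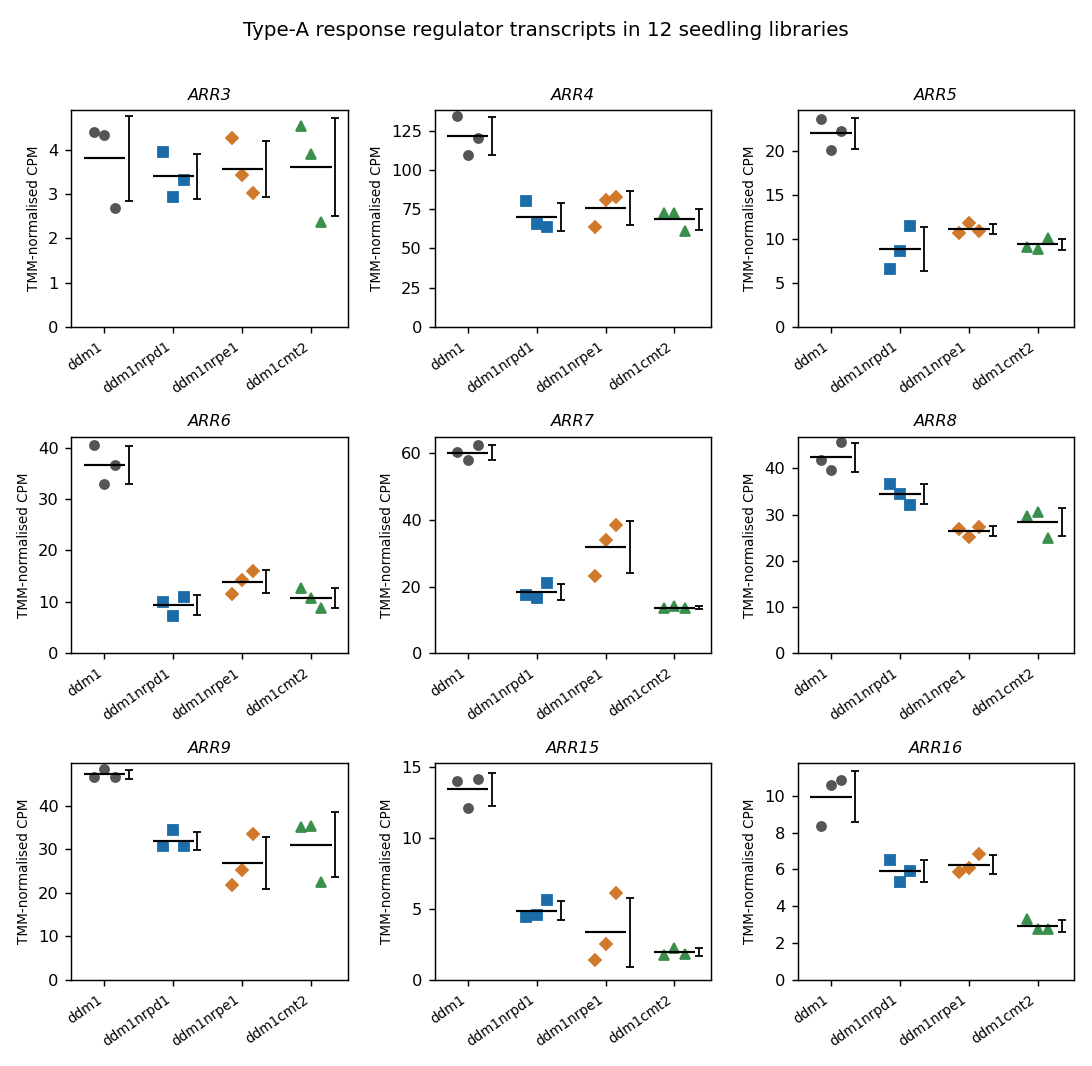
Level of 9 type-A response regulator genes in TMM-normalised CPM (vertical axes from 0) in the 4 genotypes (horizontal axes). Points are the 3 libraries of a genotype, horizontal lines their mean and bars the mean ± SD. All but ARR3 are higher in each ddm1 library than in the libraries of the double mutants.

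Upstream of the regulators, receptor genes that changed fell and phosphotransfer genes that changed rose. The receptor gene AHK4 fell in all 3 double mutants, from 49.6 ± 4.30 CPM in ddm1 to 26.5 ± 2.48 in ddm1nrpd1 (-0.90 ± 0.11, adjusted p = 5.87e-06), 19.9 ± 1.34 in ddm1nrpe1 (-1.32 ± 0.11, adjusted p = 1.11e-07) and 35.6 ± 3.18 in ddm1cmt2 (-0.47 ± 0.11, adjusted p = 0.00242). The receptor gene AHK2 fell in ddm1nrpd1 (-0.80 ± 0.14, adjusted p = 0.000313), and AHK3 fell there by 0.28 (adjusted p = 0.0256). AHK2 was also called in ddm1nrpe1 without ddm1nrpe1 replicate 3 (adjusted p = 0.0414) and in ddm1cmt2 without ddm1cmt2 replicate 2 (0.0395). The call of AHK3 was lost without ddm1nrpd1 replicate 1 or 2 or ddm1 replicate 1 (adjusted p = 0.0799, 0.0737 and 0.124). In ddm1nrpe1, AHK3 was at -0.23 ± 0.10, adjusted p = 0.0556, and it passed the threshold with DESeq2 (adjusted p = 0.0346). In edgeR it passed with upper-quartile (0.0163) or RLE scaling (0.0466) and with the 6 libraries of the comparison alone (0.043). It also passed with no filter (0.0437), a filter at a CPM of at least 1 in 3 libraries (0.0426) and without organelle loci (0.0408).

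Among the phosphotransfer genes, AHP1 went from 19.7 ± 2.53 CPM to 30.1 ± 2.34, 32.8 ± 5.88 and 38.6 ± 3.22 CPM, with log2 fold changes of 0.62, 0.74 and 0.97 (adjusted p = 0.00186, 0.000384 and 5.67e-05). AHP5 rose in the same 3 comparisons (0.64, 0.98 and 1.09, adjusted p = 0.00436, 0.000116 and 7.98e-05). AHP4 was low in ddm1, with 0.110, 0.123 and 0.385 CPM, and had 1.33 ± 0.213, 1.47 ± 0.317 and 2.13 ± 0.742 CPM in the double mutants (2.59, 2.72 and 3.26, adjusted p = 0.000757, 0.000413 and 9.95e-05). AHP2 rose in ddm1nrpe1 (0.60 ± 0.10, adjusted p = 0.000164) and ddm1cmt2 (0.60 ± 0.10, adjusted p = 0.000265), and AHP3 in ddm1nrpe1 (0.66 ± 0.13, adjusted p = 0.000801). Over the 8 tested receptor and phosphotransfer genes this made 3 up and 3 down in ddm1nrpd1, 5 up and 1 down in ddm1nrpe1 and 4 up and 1 down in ddm1cmt2.

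Of the type-B regulators, transcription factors that activate cytokinin targets, ARR1, ARR11 and ARR12 were called in some comparison against ddm1. Of 6 tested genes, 0 rose and 2 fell in ddm1nrpd1, 0 rose and 2 fell in ddm1nrpe1, and 1 rose and 1 fell in ddm1cmt2. ARR1 fell in ddm1nrpd1 (-0.64 ± 0.12, adjusted p = 0.000482) and ddm1cmt2 (-0.55 ± 0.12, adjusted p = 0.00226), and ARR11 fell in ddm1nrpd1 (-1.19 ± 0.21, adjusted p = 0.000317) and ddm1nrpe1 (-1.02 ± 0.21, adjusted p = 0.000937). ARR12 fell in ddm1nrpe1 (-0.40 ± 0.13, adjusted p = 0.0182) and rose in ddm1cmt2 (0.52 ± 0.13, adjusted p = 0.00571). Its fall in ddm1nrpe1 was lost without ddm1nrpe1 replicate 1 or 2 or ddm1 replicate 2 or 3, at adjusted p = 0.0540 to 0.0754. ARR2, ARR10 and ARR14 were not called against ddm1, though ARR10 passed the threshold in ddm1nrpd1 without ddm1nrpd1 replicate 1 (0.33, adjusted p = 0.0268).

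Genes of cytokinin synthesis showed no common direction. Of 11 tested, 2 rose and 2 fell in ddm1nrpd1, 1 rose and 3 fell in ddm1nrpe1, and 0 rose and 1 fell in ddm1cmt2. IPT3, an adenylate isopentenyltransferase, fell in ddm1cmt2 from 20.5 ± 3.55 to 10.6 ± 1.53 CPM (-0.94 ± 0.15, adjusted p = 0.000172). LOG8, a cytokinin-activating phosphoribohydrolase gene, rose in ddm1nrpe1 from 24.97 ± 3.36 to 48.8 ± 1.51 CPM (0.96 ± 0.11, adjusted p = 3.49e-06). In ddm1nrpd1, IPT7 (1.01 ± 0.34, adjusted p = 0.0244) and IPT9 (0.46 ± 0.14, adjusted p = 0.0149) rose and LOG3 (-1.02 ± 0.39, adjusted p = 0.0424) and LOG7 (-0.65 ± 0.21, adjusted p = 0.0214) fell, and none of the 4 was called without ddm1nrpd1 replicate 2 (adjusted p = 0.0620 to 0.134). Without ddm1 replicate 1 none of the 4 was called either (adjusted p = 0.0673 to 0.0899), without ddm1 replicate 2 IPT7 and LOG3 were not (adjusted p = 0.0601 and 0.172), without ddm1 replicate 3 LOG7 was not (0.0700) and without ddm1nrpd1 replicate 1 LOG3 was not (0.112). In ddm1nrpe1, LOG3 (-1.33 ± 0.41, adjusted p = 0.0127), LOG1 (-1.04 ± 0.31, adjusted p = 0.0159) and IPT3 (-0.42 ± 0.14, adjusted p = 0.0217) fell. These were lost without ddm1 replicate 2 for LOG3 (0.0641) and IPT3 (0.128), without ddm1nrpe1 replicate 2 for LOG1 (0.0580) and IPT3 (0.0905), without ddm1nrpe1 replicate 3 for IPT3 (0.0587) and without ddm1 replicate 3 for LOG1 (0.0607). IPT7 and LOG3 were scarce. In ddm1 and ddm1nrpd1, IPT7 had 0.645 ± 0.113 and 1.29 ± 0.309 CPM and LOG3 had 1.12 ± 0.357 and 0.549 ± 0.200. The LOG3 libraries of ddm1 and ddm1nrpd1 overlapped. With DESeq2, IPT7 and LOG3 were not called in ddm1nrpd1 (adjusted p = 0.0835 and 0.0931). LOG3 was also lost there with the 6 libraries of the comparison alone (0.0508) and with a replicate block (0.0655). LOG1 in ddm1nrpe1 was lost with the 6 libraries alone (0.0517).

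Genes of breakdown and conjugation were likewise mixed. Of 8 tested, 1 rose and 2 fell in ddm1nrpd1, 2 rose and 0 fell in ddm1nrpe1, and 1 rose and 1 fell in ddm1cmt2. CKX7, a cytokinin oxidase gene, rose in ddm1nrpd1 (0.65 ± 0.14, adjusted p = 0.00182) and ddm1nrpe1 (0.59 ± 0.14, adjusted p = 0.00328) and was at -0.37 ± 0.15, adjusted p = 0.073 in ddm1cmt2, where it passed the threshold without ddm1 replicate 1 (0.0282). CKX4 rose in ddm1cmt2 (1.01 ± 0.18, adjusted p = 0.000537) and was called in ddm1nrpd1 without ddm1nrpd1 replicate 1 (0.0440). UGT76C2, which attaches glucose to cytokinins, fell in ddm1nrpd1 (-0.58 ± 0.14, adjusted p = 0.00309) and ddm1cmt2 (-0.70 ± 0.14, adjusted p = 0.00114) and was called in ddm1nrpe1 without ddm1nrpe1 replicate 3 (0.00367). CKX5 in ddm1nrpe1 (0.43 ± 0.16, adjusted p = 0.0335) was lost without ddm1nrpe1 replicate 1 or 2 or ddm1 replicate 1 or 3 (adjusted p = 0.0918 to 0.133). It was also lost with upper-quartile scaling (0.0668) and with a replicate block (0.0506). UGT76C1 in ddm1nrpd1 (-0.44 ± 0.15, adjusted p = 0.0292) was lost without ddm1nrpd1 replicate 1 (0.116) or ddm1 replicate 1 (0.131). UGT85A1, another cytokinin glucosyltransferase gene, had 23.5, 24.2 and 22.3 CPM in ddm1 and 6.06, 7.36 and 22.4 in ddm1cmt2. It was not called there (-0.98 ± 0.41, adjusted p = 0.09) but was without ddm1cmt2 replicate 3 (-1.77, adjusted p = 2.14e-06) and with limma-voom (adjusted p = 0.0222).

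Most auxin genes linked to the CRFs in the literature fell in both RdDM double mutants. Described here are ARF5 (MONOPTEROS), its repressor gene IAA12 and the auxin efflux carrier genes PIN2, PIN3, PIN4 and PIN7, and CRFs are known to regulate PIN7. Of these 6, 0 rose and 5 fell in ddm1nrpd1, 0 rose and 6 fell in ddm1nrpe1, and 1 rose and 2 fell in ddm1cmt2. PIN7 libraries had 92.02, 79.6 and 94.3 CPM in ddm1, 28.8, 34.02 and 33.99 in ddm1nrpd1, 40.4, 51.4 and 65.1 in ddm1nrpe1 and 184, 180.0 and 149 in ddm1cmt2. The 4 groups did not overlap, and PIN7 fell in ddm1nrpd1 (-1.46 ± 0.15, adjusted p = 2.06e-06) and ddm1nrpe1 (-0.76 ± 0.15, adjusted p = 0.000602) and rose in ddm1cmt2 (0.95 ± 0.15, adjusted p = 0.000137). The 2 RdDM double mutants differed from ddm1cmt2 by -2.40 ± 0.15, adjusted p = 6.63e-09 and -1.71 ± 0.15, adjusted p = 1.94e-07.

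PIN3 fell in all 3, from 122 ± 7.55 CPM to 63.6 ± 6.30 (-0.94 ± 0.13, adjusted p = 2.84e-05), 89.5 ± 17.1 (-0.44 ± 0.13, adjusted p = 0.00855) and 71.9 ± 6.60 CPM (-0.76 ± 0.13, adjusted p = 0.000264). PIN4 fell in ddm1nrpd1 (-0.999 ± 0.19, adjusted p = 0.0009) and ddm1nrpe1 (-0.83 ± 0.19, adjusted p = 0.00262) and had -0.04 ± 0.19 in ddm1cmt2. PIN2, a carrier of root tips, fell in the same genotypes (-0.51 ± 0.12, adjusted p = 0.00288 and -1.27 ± 0.12, adjusted p = 9.3e-07). ARF5, whose protein acts upstream of CRF2 in embryos, went from 24.5 ± 3.24 CPM in ddm1 to 15.8 ± 2.02 in ddm1nrpd1 and 11.8 ± 2.42 in ddm1nrpe1 (adjusted p = 0.00746 and 0.000176), and had 23.5 ± 4.88 in ddm1cmt2, where it was not called (-0.06 ± 0.17, adjusted p = 0.834). IAA12 had 0.27 ± 0.11 in ddm1nrpd1, where it was called higher without ddm1 replicate 3 (adjusted p = 0.0349). It fell in ddm1nrpe1 (-0.48 ± 0.11, adjusted p = 0.00263) and ddm1cmt2 (-0.33 ± 0.12, adjusted p = 0.0342), the second of which was lost without ddm1 replicate 1 or 3 or ddm1cmt2 replicate 2 or 3 (adjusted p = 0.0773 to 0.142). The fall in ddm1cmt2 was also lost with the 6 libraries of the comparison alone (0.0573). In ddm1nrpd1, 6 of 11 root markers and 2 of 5 vascular markers fell and 1 root marker (SCR) rose, where 21.7% of all tested loci fell and 22.9% rose. In ddm1nrpe1, 8 of 11 and 4 of 5 fell, where 23.9% of all tested loci did. The part of these markers in the auxin genes was not tested.

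**Figure D5:**
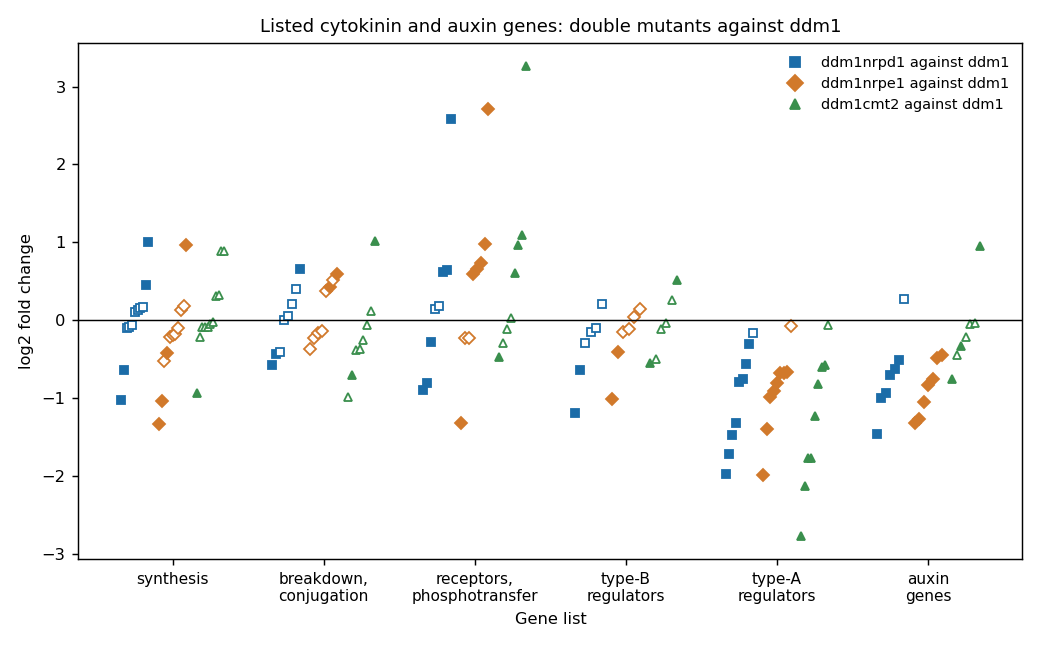
Log2 fold change (vertical axis) of the tested genes of 6 cytokinin and auxin lists (horizontal axis) in each double mutant against ddm1. Each point is a gene, ordered by value within its list, and filled points passed an adjusted p of 0.05 over all tested loci. The type-A regulators lie below 0 in all 3 comparisons and the auxin genes lie mostly below 0 in ddm1nrpd1 and ddm1nrpe1.

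For each member the nearest counted gene on either side was taken, 18 genes in all, to show the counts at their positions. Of these, 5 rose and 3 fell in ddm1nrpd1, 4 rose and 4 fell in ddm1nrpe1 and 3 rose and 3 fell in ddm1cmt2, with medians of 0.16, 0.01 and 0.07. Among all tested loci, 22.9% rose and 21.7% fell in ddm1nrpd1, 26.5% and 23.9% in ddm1nrpe1, and 18.4% and 17.7% in ddm1cmt2. The neighbours were thus called about as often as loci at large, and nothing about position is read from them. RDR2, a neighbour of CRF1 that makes double-stranded RNA with polymerase IV, fell in ddm1nrpd1 (-0.71 ± 0.17, adjusted p = 0.00279) and ddm1nrpe1 (-0.73 ± 0.17, adjusted p = 0.00207) and had 0.06 ± 0.16, adjusted p = 0.797 in ddm1cmt2, where CRF1 was lowest. Beside CRF6, AGP20, an arabinogalactan protein gene, fell in ddm1cmt2 (-1.29 ± 0.14, adjusted p = 3.94e-06) and so did RRP41, an exosome subunit gene (-0.55 ± 0.17, adjusted p = 0.0176). In ddm1nrpe1, where CRF6 was highest, these 2 had -0.03 ± 0.13 and 0.06 ± 0.16. XYL1, an alpha-xylosidase gene next to CRF10, fell in ddm1nrpd1 (-0.86 ± 0.13, adjusted p = 6.01e-05) and ddm1nrpe1 (-0.46 ± 0.13, adjusted p = 0.00652). AT4G23740, beside CRF2, fell in the same 2 genotypes (-0.57 ± 0.13, adjusted p = 0.00256 and -0.65 ± 0.13, adjusted p = 0.000815). Other neighbours rose in some genotypes. AT4G23760, on the other side of CRF2, rose in ddm1nrpe1 (0.53 ± 0.19, adjusted p = 0.0276). TUF, on the other side of CRF1, rose in ddm1nrpe1 (0.32 ± 0.09, adjusted p = 0.0115) and ddm1cmt2 (0.44 ± 0.09, adjusted p = 0.00201). AT2G46320, next to CRF5, rose in ddm1nrpd1 (0.70 ± 0.14, adjusted p = 0.00103) and ddm1cmt2 (0.49 ± 0.15, adjusted p = 0.0161). MTM1, next to CRF4, rose in ddm1nrpd1 (1.17 ± 0.14, adjusted p = 8.38e-06) and fell in ddm1cmt2 (-0.44 ± 0.15, adjusted p = 0.0348), and UBC9, a ubiquitin-conjugating enzyme gene on its other side, rose in ddm1nrpd1 (0.53 ± 0.11, adjusted p = 0.00138) and ddm1nrpe1 (0.68 ± 0.11, adjusted p = 0.000138). NIMIN-2, next to CRF11, rose in ddm1nrpd1 (2.66 ± 0.74, adjusted p = 0.0131) and ddm1nrpe1 (3.41 ± 0.71, adjusted p = 0.00218). Its level was low in ddm1, at 0.769, 0.617 and 0.385 CPM. The libraries had 4.23, 4.65 and 2.08 CPM in ddm1nrpd1, 8.58, 5.79 and 4.47 in ddm1nrpe1 and 0.606, 1.03 and 4.38 in ddm1cmt2. PDV1, a plastid division gene next to CRF3, rose in ddm1nrpd1 (0.50 ± 0.15, adjusted p = 0.0129) and ddm1cmt2 (0.69 ± 0.15, adjusted p = 0.00218) and fell in ddm1nrpe1 (-0.47 ± 0.15, adjusted p = 0.0193).

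The loci most like each member over the 12 libraries were taken by Pearson's r of log2 CPM among 23534 loci, as a description of libraries that share genotype and depth. CRF2 was most like sks4 (r = 0.977), the actin gene ACT2 (r = 0.975) and ULI3 (r = 0.974). ACT2, often used as a reference gene, had a mean of 889 CPM in ddm1 and 443, 447 and 481 CPM in the double mutants. CRF1 was most like AT3G02468 and SAMDC, an enzyme gene of polyamine synthesis (both r = 0.973), whose counts were equal in 5 of 12 libraries and differed by at most 4, and AT3G24542 (r = 0.971). CRF5 was most like AT4G04692 (r = 0.977), which also came second for CRF10 (r = 0.971), and then FLR1 (r = 0.969) and AT1G68552 (r = 0.968). AT1G68552 has nearly the counts of CRF10, so it is no match apart from the family (CRF5 with CRF10, r = 0.963). CRF10 was followed most closely by AT1G68552 (r = 1.000) and CRF12 by AT1G25472 (r = 1.000), the loci with shared counts, while AT1G13640 (r = 0.968) came next for CRF10 and AT3G56680 (r = 0.921) and the mitochondrial locus ATMG01360 (r = 0.920) came next for CRF12.

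CRF11 was most like AT3G19030 (r = 0.980), CIL (r = 0.978) and RBP47A (r = 0.974), which all had their lowest mean in ddm1cmt2. CRF6 was most like AT3G27030 (r = 0.970), the vesicle protein gene VAMP711 (r = 0.970) and AT4G16695 (r = 0.966). VAMP711 had mean levels of 69.7, 69.8, 89.8 and 47.0 CPM in ddm1, ddm1nrpd1, ddm1nrpe1 and ddm1cmt2. CRF3 was most like AT2G25980 (r = 0.957), AT1G36240 (r = 0.953) and CYP71A27 (r = 0.953), all lowest in ddm1nrpe1. CRF4 was most like LETM1 (r = 0.960), HUA1 (r = 0.941) and NPY4 (r = 0.918).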

How the data were processed

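RNA libraries of Arabidopsis seedlings were read from 1 table of the whole series, with each column matched to a sample by its name. The authors deposited raw read counts per locus and, beside them, CPM values, each count scaled to the total of its column. Per the submitters' processing notes, Trimmomatic, TopHat, HTSeq and edgeR were used with build TAIR10, and no source used here states their versions, the annotation, or how strand and multi-mapped reads were treated.

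All fits start from the raw counts and used edgeR 4.0.16 under R 4.3.3. After filterByExpr and TMM scaling, 1 robust quasi-likelihood model with 4 group means (8 residual degrees of freedom) was fitted to 24839 loci. Each of 6 contrasts was tested with glmQLFTest and adjusted by Benjamini-Hochberg over these loci at a threshold of 0.05. Standard errors are the log2 fold change divided by the square root of F. Errors on levels are SDs over 3 libraries, and deeper libraries have less counting error. Gene names and spans are those of RefSeq (TAIR10.1), another release than the files' build, so no coordinates are printed.

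The members and gene lists were chosen with earlier results of these data known, and the clock genes were added after the values were seen. Named are all members, CRF7 and CRF8, every type-A regulator, up to 4 called genes per list and comparison by smallest adjusted p, the nearest counted neighbours called against ddm1, and the 3 loci most like each member (log2 CPM with a prior count of 2, mean CPM of at least 1). Other genes, such as AHK3, were named after their values were seen, to complete a count. Alternatives were RLE and upper-quartile factors, DESeq2 1.42.0, limma-voom (limma 3.58.1), other filters, the 6 libraries of a comparison alone, a replicate block, no organelle loci and each library left out. The planned search of promoters for motifs was not run, since no sequence was used here. A listed gene that entered the counts over all lists is not reported here.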

Additional observations from a re-analysis of the deposited data

How the results depend on the processing

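No member or listed gene reversed its direction past the threshold under any alternative run. The count of members called, a description only, moved by over 1.5 times in few settings. Without ddm1nrpe1 replicate 2, members higher in ddm1nrpe1 than in ddm1 went from 1 to 0, members higher in ddm1nrpd1 than in ddm1nrpe1 from 3 to 1 and lower ones from 1 to 0. Members lower in ddm1nrpe1 than in ddm1cmt2 went from 2 to 1 without ddm1nrpe1 replicate 2, without ddm1cmt2 replicate 2 and with the 6 libraries alone. Over all libraries left out in turn, those counts ranged from 0 to 1, 1 to 3, 0 to 1 and 1 to 2, and members lower than in ddm1 ranged from 4 to 6 in ddm1nrpd1, 7 to 8 in ddm1nrpe1 and 7 to 8 in ddm1cmt2. The cause was not tested. Among the listed genes, the numbers that fell against ddm1 ranged from 19 to 22, 18 to 23 and 13 to 14. Deviations from the group mean had r = -0.31 to 0.22 between same-numbered libraries of 2 groups. Libraries of unlike number were not compared, so whether replicate numbers pair the libraries cannot be told from this. With the replicate block, 6, 7 and 8 members were called lower in ddm1nrpd1, ddm1nrpe1 and ddm1cmt2 than in ddm1, and 2 in place of 3 higher in ddm1nrpd1 than in ddm1nrpe1. CRF1, with 7 to 74 counts per library, is the member that depth limits most.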
